A study of Homo sapiens with 4 samples.

Results

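Replication-dependent histone genes encode the bulk core histones H2A, H2B, H3 and H4 and the linker histone H1 that package newly copied DNA. They were taken as the protein-coding genes with the symbols H1-1 to H1-6, or with a symbol that begins with H2AC, H2BC, H3C or H4C and a digit. The rule gave 70 symbols, of which 66 were matched among the 58884 genes counted. H2AC18, H2AC19, H3C2 and H3C3 were not matched and were not analysed here. The 66 genes comprise 6 H1, 15 H2A, 19 H2B, 11 H3 and 15 H4 genes.

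The counts come from RNA sequencing of HCT116, a human colorectal carcinoma cell line, with 2 RALY knockdown libraries and 2 control libraries. RALY belongs to the hnRNP proteins, which bind RNA. Cells of the knockdown received an shRNA lentivirus directed at RALY with polybrene for 72 h, per the labels' protocol, which names a nonsilencing shRNA lentivirus as the counterpart. Another label calls the controls untreated, so what the control cells carried is not settled here. The same label writes HCT-117 for replicate 2 of each group, although the entry for the line itself reads HCT-116 in every library. Separate cultures are not stated, so each p-value below reflects the spread between the libraries of a group, whatever its source. Totals were 16493967 and 14762755 counts in the RALY knockdown libraries and 13360007 and 16847520 counts in the control libraries. RALY itself (ENSG00000125970, chromosome 20, 33993646 to 34108308) had 634 and 522 counts after knockdown and 1903 and 2132 counts in controls. Its log2 fold change was -1.84 (SE 0.127, edgeR adjusted p = 6.59e-06). The 8 colorectal epithelial markers listed summed to 602 and 646 CPM in the knockdown libraries and 657 and 564 CPM in the control libraries, with CDX1 and LGALS4 near 0. The 6 fibroblast markers summed to 103 and 132 CPM after knockdown and 127 and 147 CPM in controls, nearly all from COL1A1 and PDGFRB, with LUM and COL1A2 near 0. The 5 leukocyte markers summed to 27.9 and 27.8 CPM after knockdown and 34.5 and 30.7 CPM in controls, mostly from CD68, with CD3E and PTPRC near 0. The part of other cell types in the histone values was not tested.

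Histone messages of this class are the metazoan mRNAs that end without a poly(A) tail. A short stem-loop after the stop codon is bound by SLBP, and a complex that includes the U7 snRNP, with LSM10 and LSM11, and ZNF473 cuts the transcript just past it. Transcription is driven in S phase by NPAT, a substrate of cyclin E and CDK2, at histone locus bodies, and the messages are degraded when DNA synthesis ends. Several of the genes can also yield polyadenylated messages that run past the stem-loop. A library made by selecting poly(A) tails would therefore capture mainly the polyadenylated form, and the sources used here do not say whether such a selection was used.

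The stem-loop is shown because it is the sequence that sets these messages apart. A match to the histone stem-loop consensus of 16 bases was sought in the 150 bases after the stop codon of each GENCODE transcript on GRCh38. It was found in 65 of the 66 genes (98.5%), the exception being H2BC12L, and in 8 of 19853 other protein-coding genes (0.0403%). Of these 8, 4 are the unmatched symbols of the class, 3 are other histone genes (H2AX, H3-4 and H3-7) and 1 is BTBD10. In the sequences below, capitals mark the 16 bases of the stem-loop, with 5 bases on each side. They are given for the 2 genes that were called, for the 4 genes with the most counts, for the H4 gene with the highest log2 fold change, and for H2AX, a variant outside the class that keeps a stem-loop.
H2BC21 at chr1:149886183-149886208, minus strand: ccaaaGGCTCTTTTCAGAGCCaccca
H1-4 at chr6:26157090-26157115, plus strand: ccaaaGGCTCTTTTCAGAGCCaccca
H2BC12 at chr6:27146361-27146386, minus strand: ccaaaGGCTCTTTTAAGAGCCactta
H1-2 at chr6:26055739-26055764, minus strand: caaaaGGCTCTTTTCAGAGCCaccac
H2AC6 at chr6:26124664-26124689, plus strand: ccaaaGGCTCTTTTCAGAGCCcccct
H2BC5 at chr6:26158582-26158607, plus strand: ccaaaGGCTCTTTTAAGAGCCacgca
H4C16 at chr12:14770719-14770744, minus strand: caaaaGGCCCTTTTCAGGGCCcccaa
H2AX at chr11:119094893-119094918, minus strand: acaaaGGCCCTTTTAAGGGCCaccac
H2BC21 and H1-4 have the same 26 bases, which are also those of H2BC26, H2AC8, H3C10 and H1-5. H2BC26 was tested and not called, and H2AC8, H3C10 and H1-5 were not tested. What the deposited gene models cover differs between genes: the stem-loop lies inside the counted exons of 29 genes, and 24 of these have more than 100 counted exon bases beyond it. Another 29 genes have a model that runs only from the start codon to the stop codon.

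The histone genes were near the floor of detection in these libraries, and most could not be tested. No count was recorded in any library for 17 of the 66 genes. A further 27 had counts but did not pass the filter on low counts, with at most 42 counts in any library, and 22 were tested. Only 16 of the 66 genes averaged more than 1 CPM (counts scaled to 1e6 per library, on TMM-scaled totals). A count of 0 allows up to 3 counts, which is 0.187 and 0.202 CPM in the knockdown libraries and 0.227 and 0.174 CPM in the control libraries, counting error only. All 66 genes together held 1077 and 1728 counts in the knockdown libraries and 740 and 1789 counts in the control libraries. These sums were 0.00653% and 0.0117% of the knockdown libraries and 0.00554% and 0.0106% of the control libraries. The summed level was thus low in library 1 and high in library 2 of each group, and the groups overlapped. In such bulk RNA, the number of cells in S phase and the histone RNA of each cell cannot be told apart.

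**Figure D1:**
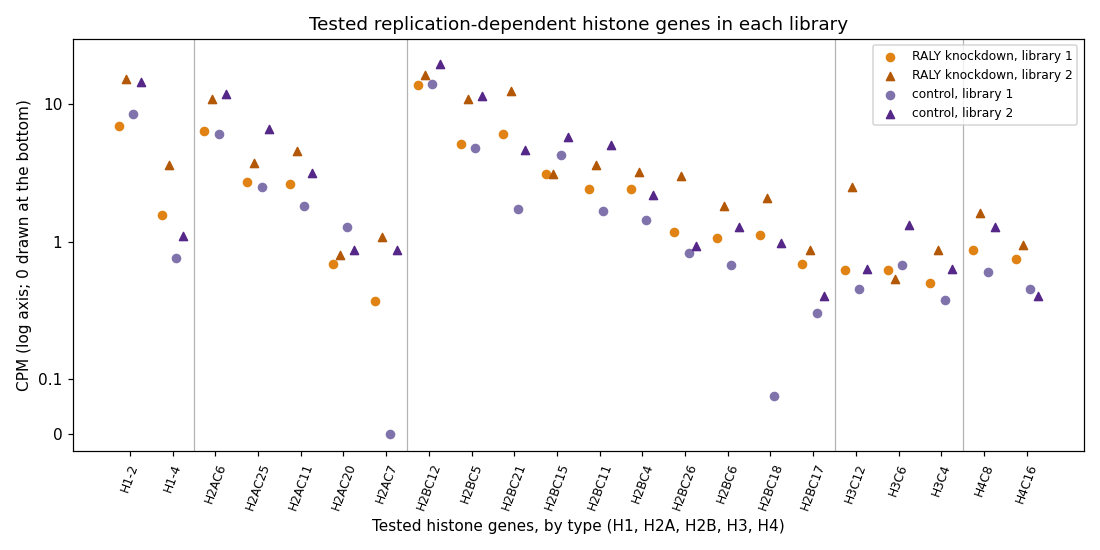
CPM in each library for the 22 tested histone genes, on a log axis, with RALY knockdown libraries and control libraries as separate points. H2BC12 has the highest mean, and both knockdown points of H2BC21, at 6.11 and 12.4 CPM, lie above its control points at 1.74 and 4.69 CPM.

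The counts were carried by few genes. H2BC12, an H2B gene, and H1-2, a linker histone gene, held 31.7% of all the histone counts, and with H2AC6, an H2A gene, and H2BC5, another H2B gene, the share was 51.5%. Per length of counted exon, H2BC12 stood highest at a mean level of 41.9 RPKM over the 4 libraries, followed by H1-2 at 17.6, H2BC5 at 9.27 and H2AC6 at 5.29 RPKM. H2AC25 and H2BC11 followed at 4.36 and 3.36 RPKM. H2BC12 is one of the genes with a coding-only model, and 25.9% of its 50-base windows occur once in the genome, so its counts could be split with, or taken from, near-identical H2B genes. Across the class, 26 genes had every 50-base window unique and 6 had none.

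H2BC21 and H1-4 rose after RALY knockdown. H2BC21, an H2B gene (ENSG00000184678, chromosome 1, 149884459 to 149886652, minus strand), had 98 and 185 counts in the knockdown libraries and 23 and 81 counts in the control libraries. Both knockdown libraries lay above both controls, with little room between the lower knockdown and the higher control library. It averaged 9.28 ± 4.47 CPM in the knockdown and 3.21 ± 2.08 CPM in controls (SD, n = 2 each), a 2.81-fold difference (log2 fold change 1.49, SE 0.419, edgeR adjusted p = 0.0209). Its stem-loop sits 56 bases after the stop codon, and the single counted exon runs 1729 bases further, so counts can come from messages that pass the stem-loop. The gene was no longer called without control library 1 (log2 fold change 0.94, edgeR adjusted p = 0.278) or without control library 2 (2.39, edgeR adjusted p = 0.0605). Without either knockdown library it was still called, at 1.89 without library 1 and 0.88 without library 2.

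H1-4, a linker histone gene (ENSG00000168298, chromosome 6, 26156354 to 26157107, plus strand), had 25 and 54 counts in the knockdown libraries and 10 and 19 counts in the control libraries. The groups did not overlap. It averaged 2.60 ± 1.46 CPM in the knockdown and 0.929 ± 0.241 CPM in controls (SD, n = 2 each), a 2.73-fold difference (log2 fold change 1.45, SE 0.464, edgeR adjusted p = 0.0374). Its counted exon ends within the stem-loop, which begins 44 bases after the stop codon, and every 50-base window of the exon is unique. The call was lost with library totals in place of TMM factors (edgeR adjusted p = 0.0606), with the DESeq2 Wald test (DESeq2 adjusted p = 0.130), and against a minimum fold of 1.2 (edgeR adjusted p = 0.0612). It was also lost without knockdown library 2 (log2 fold change 0.71, edgeR adjusted p = 0.336), control library 1 (1.19, edgeR adjusted p = 0.304) or control library 2 (1.74, edgeR adjusted p = 0.191).

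Of the 22 tested histone genes, 2 rose and 0 fell (edgeR quasi-likelihood test, Benjamini-Hochberg adjusted p under 0.05). Of all 19686 genes tested, 12.5% rose and 13.1% fell, so the share called among the histone genes was not above that of all genes in either direction. At an unadjusted edgeR p under 0.05, 5 histone genes were higher and 1 was lower. Of all 19686 genes tested, 3793 were higher and 3731 lower at that threshold. The DESeq2 Wald test called 1 histone gene higher and 0 lower, against 1824 higher and 2119 lower of all genes tested. The log2 fold changes ran from -0.82 to 1.49 with a median of 0.44, against a median of 0.01 over all genes tested. They were positive for 13 genes and negative for 9. The negative ones include the 4 genes with the most counts, H2BC12, H1-2, H2AC6 and H2BC5, at -0.16 to -0.05. The median SE was 0.455 for the histone genes and 0.168 over all genes tested. Both knockdown libraries lay above both controls for 7 genes, against 32.3% of all genes tested, and below for 3, against 31.3%. The other 12 genes overlapped. The number called higher was 0 without either control library, 10 without knockdown library 1 and 1 without knockdown library 2.

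**Figure D2:**
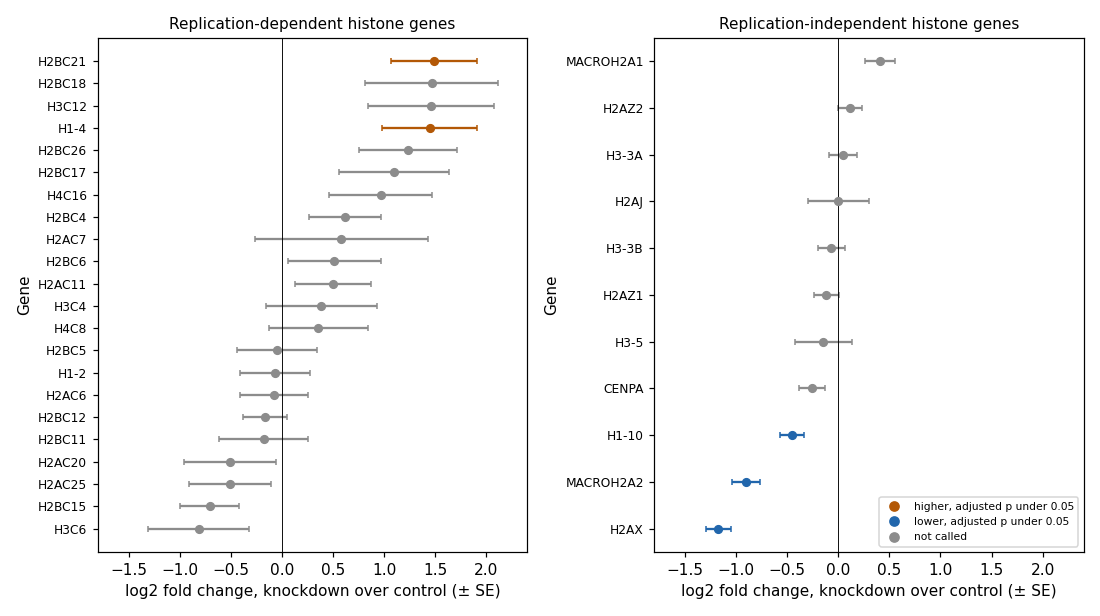
Log2 fold change, RALY knockdown over control, with SE as bars and called genes in colour, of the 22 tested replication-dependent histone genes (left) and of the 11 tested replication-independent histone genes (right). On the left H2BC21 and H1-4 are called higher, at 1.49 and 1.45, and the other 20 values lie on both sides of 0; on the right H2AX, MACROH2A2 and H1-10 are called lower, at -1.17, -0.91 and -0.45.

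Linker histone proteins bind DNA where it enters and leaves the nucleosome. Of 6 H1 genes, 2 had no count and 2 were tested. H1-4 rose, as described, whereas H1-2, the most counted of them, had 111 and 227 counts in the knockdown libraries and 113 and 251 counts in the control libraries. H1-2 was low in library 1 and high in library 2 of each group, and its log2 fold change was -0.07 (SE 0.340, edgeR adjusted p = 0.909). Without knockdown library 2, H1-2 was called lower, at -0.75 (edgeR adjusted p = 0.0229). The summed H1 level was 8.55 and 19.4 CPM in the knockdown libraries and 9.32 and 15.7 CPM in the control libraries, and the groups overlapped.

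H2A genes encode a core histone that pairs with H2B. Of 15, 5 were tested and 0 were called by edgeR or DESeq2 or passed an unadjusted edgeR p under 0.05. H2AC6 had 102 and 162 counts in the knockdown libraries and 80 and 207 counts in the control libraries (log2 fold change -0.08, edgeR adjusted p = 0.892). H2AC25 had 44 and 56 counts after knockdown and 33 and 114 in controls (-0.51, edgeR adjusted p = 0.385), and H2AC11 had 42 and 68 against 24 and 55 (0.50, edgeR adjusted p = 0.358). These genes overlapped between the groups. H2AC20 was the one tested H2A gene with both knockdown libraries below both controls, as were 31.3% of all genes tested. It had 11 and 12 counts in the knockdown and 17 and 15 counts in controls (-0.51, edgeR adjusted p = 0.450). H2AC7 had 6 and 16 counts after knockdown and 0 and 15 in controls, and 98.0% of its exon bases are shared with another gene model, so its counts are uncertain.

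H2B genes made up most of the counts, with a summed level of 37.7 and 58.4 CPM in the knockdown libraries and 30.01 and 52.6 CPM in the control libraries. Of 19 H2B genes, 10 were tested and H2BC21 alone was called by edgeR. H2BC12 had 223 and 242 counts in the knockdown libraries and 186 and 339 counts in the control libraries, so the groups overlapped (log2 fold change -0.16, SE 0.213, edgeR adjusted p = 0.619). H2BC5 had 82 and 162 counts after knockdown and 64 and 198 in controls (-0.05, edgeR adjusted p = 0.949). H2BC15 was the one H2B gene with both knockdown libraries below both controls, as were 31.3% of all genes tested. It had 50 and 46 counts in the knockdown and 57 and 100 counts in controls (-0.71, edgeR adjusted p = 0.0902). H2BC26 lay the other way, at 19 and 45 counts in the knockdown and 11 and 16 counts in controls (1.24, edgeR adjusted p = 0.0778). H2BC18 also had both knockdown libraries higher, at 18 and 31 counts in the knockdown and 1 and 17 counts in controls (1.47, edgeR adjusted p = 0.117). Its nearest libraries stood at 1.12 CPM in the knockdown and 0.983 CPM in controls. Of its 50-base windows, 32.7% occur once in the genome, so its counts are uncertain. H2BC12, H2BC5, H2BC15, H2BC26 and H2BC18 did not pass the adjusted threshold with the filter on low counts, all libraries and group as the only term. Without that filter H2BC26 and H2BC18 were called higher, and other runs are given in the section on processing. The other 4 tested H2B genes, H2BC17, H2BC4, H2BC6 and H2BC11, had log2 fold changes between -0.18 and 1.10.

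H3 and H4 form the tetramer at the centre of the nucleosome, and their genes were the least counted. The 11 H3 genes summed to 2.31 and 5.51 CPM in the knockdown libraries and 1.82 and 4.11 CPM in the control libraries. The 15 H4 genes summed to 4.37 and 7.73 CPM after knockdown and 2.20 and 6.31 CPM in controls. Both types therefore again had library 2 above library 1 in each group. Of the 3 tested H3 genes and the 2 tested H4 genes, 0 were called by edgeR or DESeq2, and 1, H3C12, passed an unadjusted edgeR p under 0.05. H3C12 had 10 and 37 counts in the knockdown libraries and 6 and 11 counts in the control libraries (log2 fold change 1.46, edgeR adjusted p = 0.1004). Its groups overlapped, at 0.624 CPM in knockdown library 1 and 0.636 CPM in control library 2. The log2 fold change was 0.16 without knockdown library 2 and 2.13 without knockdown library 1. Of its exon bases, 44.6% are shared with H2AC17. H3C6 had 10 and 8 counts in the knockdown and 9 and 23 counts in controls (-0.82, edgeR adjusted p = 0.254). H3C4, at 8 and 13 counts after knockdown and 5 and 11 in controls (0.39, edgeR adjusted p = 0.653), shares all of its exon bases with another gene model. H4C16, which lies alone on chromosome 12, had 12 and 14 counts in the knockdown libraries and 6 and 7 counts in the control libraries (0.97, edgeR adjusted p = 0.185). H4C8 overlapped between the groups, with 14 and 24 counts in the knockdown and 8 and 22 in controls (0.35, edgeR adjusted p = 0.642).

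**Figure D3:**
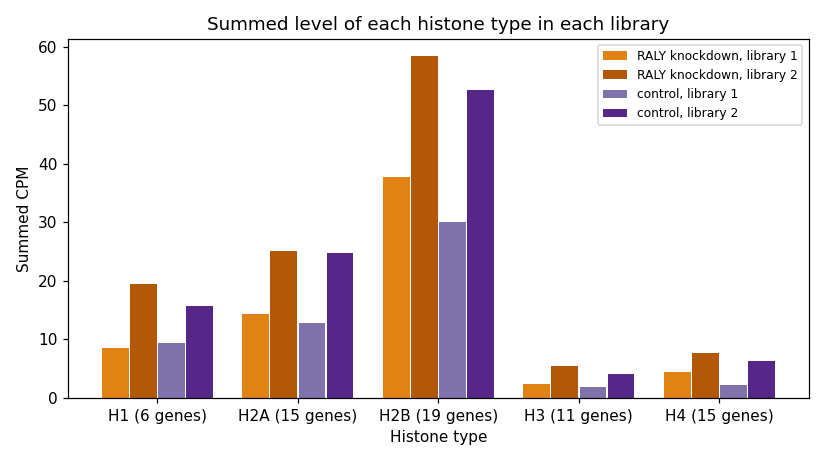
Summed CPM of the genes of each histone type, as bars from 0, in the 2 RALY knockdown libraries and the 2 control libraries. Library 2 stands above library 1 in each group for all 5 types, from 37.7 against 58.4 CPM for H2B in the knockdown to 1.82 against 4.11 CPM for H3 in controls.

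The difference between the replicates was larger than that between the groups. The summed level of all 66 genes was 67.2 and 116 CPM in the knockdown libraries and 56.1 and 103 CPM in the control libraries, so that library 2 held 1.73 times the level of library 1 in the knockdown and 1.85 times in controls. The ratio of the group means, knockdown over control, was 1.15. Of the 22 tested histone genes, 18 (81.8%) had library 2 above library 1 in both groups, against 28.3% of all genes tested. Genes of S phase did not share this order, which was not particular to them. Library 2 stood above library 1 in both groups for 0 of 24 histone chaperone genes and 1 of 14 replication-independent histone genes. The epithelial, fibroblast and leukocyte markers had 0 of 8, 3 of 6 and 2 of 5. The 15 genes of a list with PCNA, the replication clamp, the MCM helicase subunits and RRM2, a ribonucleotide reductase subunit, summed to 2397 and 2129 CPM in the knockdown and 2610 and 2236 CPM in controls, and 0 of the 15 had library 2 above library 1 in both groups. RNAs without a poly(A) tail were also looked at, as a list of 8 chosen after the values were seen. They summed to 18.6 and 30.4 CPM in the knockdown libraries and 13.0 and 16.5 CPM in the control libraries. Library 2 stood at 1.63 times library 1 in the knockdown and 1.27 times in controls. Of the 8, 4 had library 2 above library 1 in both groups. Of 5 tested, 1 rose by edgeR, where 12.5% of all genes tested rose. It was RN7SK, an RNA polymerase III transcript that holds back P-TEFb. RN7SK had 104 and 212 of the list's 298 and 452 counts in the knockdown. In controls it had 22 and 57 of 172 and 286 counts (log2 fold change 2.03, edgeR adjusted p = 0.00337). All exon bases of RN7SK, and of RMRP, RPPH1 and SCARNA2 in the list, are shared with another gene model, so their counts are uncertain. The part of such RNAs in the histone values was not tested.

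**Figure D4:**
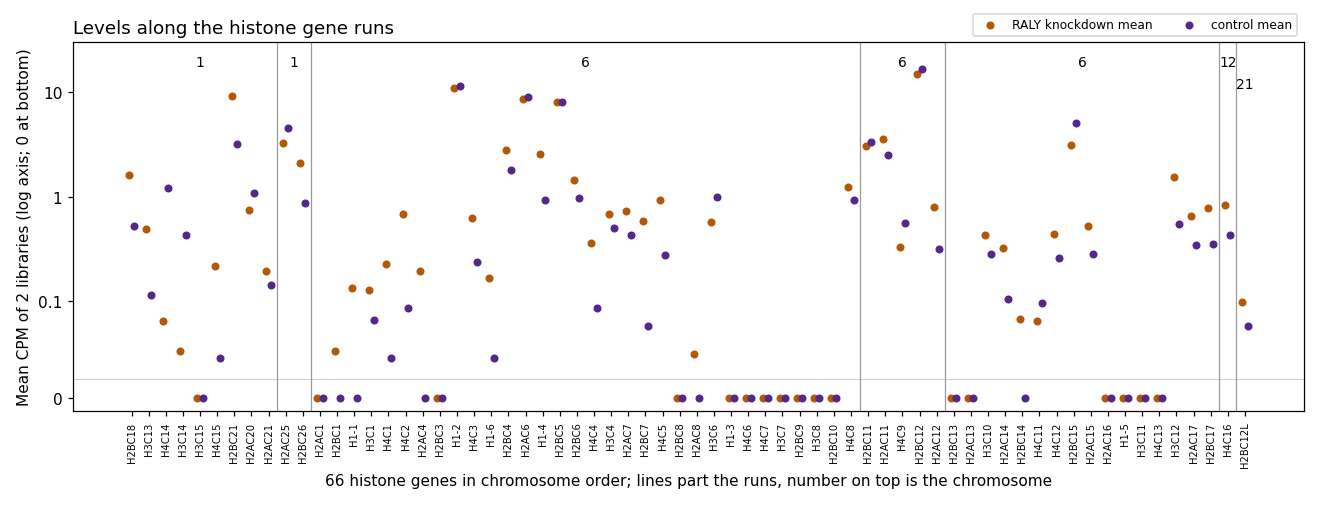
Mean CPM of the 2 RALY knockdown libraries and of the 2 control libraries for the 66 histone genes in chromosome order, on an axis that is logarithmic above its grey line and has 0 at the bottom. The 7 neighbours from H1-3 to H2BC10 are at 0 in both groups, and H2BC21 is the high knockdown point of the first run at 9.28 CPM against 3.21 CPM in controls.

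By position, the genes fall into 5 runs with gaps under 500000 bases and 2 single genes. The largest run, on chromosome 6 from 25726132 to 26285638, holds 32 genes, of which 10 had no count and 10 were tested. It summed to 27.9 and 55.9 CPM in the knockdown libraries and 24.3 and 48.1 CPM in the control libraries, and H1-4 was its 1 called gene. The 7 genes in a row there, from H1-3 to H2BC10, had no count in any library. A run of 5 genes with H2BC12 (27125897 to 27147515) summed to 19.3 and 26.4 CPM after knockdown and 18.4 and 28.8 CPM in controls, and a run of 16 with H2BC15 (27807444 to 27893843) to 6.43 and 9.48 CPM after knockdown and 6.21 and 8.45 CPM in controls. The run of 9 genes on chromosome 1 from 149782689 to 149888013 had the widest gap between groups, at 8.80 and 16.5 CPM in the knockdown and 3.34 and 10.2 CPM in controls, or 1.87 times the control mean, with H2BC21 its most counted gene. The pair H2AC25 and H2BC26, also on chromosome 1 (228456979 to 228460470), summed to 3.93 and 6.79 CPM after knockdown and 3.34 and 7.52 CPM in controls. The groups overlapped in each of the 5 runs. Of the 17 genes with no count, 13 had at least 90% of their 50-base windows unique and 10 had all of them unique. Counts were uneven in H4C14, at 1 and 1 in the knockdown and 0 and 42 in controls. H4C15, another H4 gene of that chromosome, had 7 and 0 in the knockdown and 0 and 1 in controls. H3C14 had 0 and 1 in the knockdown and 0 and 15 in controls, and H3C15 had no count in any library. The models of H4C14 and H3C14 overlap on opposite strands. None of H4C14, H4C15, H3C14 and H3C15 has a unique 50-base window, none was tested, and their counts are uncertain.

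Many H2A and H2B genes sit head to head and share the stretch between their starts. There were 11 such pairs, with 218 to 330 bases between the counted models, and in 4 of them both genes were tested. The 2 genes of a pair had log2 fold changes of opposite sign in all 4. H2BC21 and H2AC20, 322 bases apart, stood at 1.49 and -0.51, and H2BC26 and H2AC25, 233 bases apart, at 1.24 and -0.51. H2BC4 and H2AC6 stood at 0.62 and -0.08, and H2BC11 and H2AC11 at -0.18 and 0.50. Of these 8 genes H2BC21 alone was called, and the differences within pairs were not tested. The signs depended on single libraries, in a recount chosen after the data were seen: without knockdown library 1 they were opposite in 2 of the 4 pairs, and without control library 2 in 1 of the 4.

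The starts of H2BC21 and H1-4, the called genes, are shown with the promoter motifs TATAAA and CCAAT. Each was sought on both strands, where matches may overlap, and no other motif was sought. Windows run from 250 bases before to 50 after the start and are RefSeq's on GRCh38.p14, and 60 of the 66 genes had one. TATAAA was present in 39 of the 60 windows (65.0%) and in 11.95% of 27305 windows of all genes. CCAAT was present in 50 of the 60 (83.3%) and in 35.7% of all. In the windows below, capitals mark both motifs on either strand, written as they read on the strand of the gene. H2BC21 holds 2 matches of TATAAA and 3 of CCAAT, and H1-4 holds 2 and 1. A match is a run of letters and not evidence of binding.
H2BC21 at chr1:149886633-149886932, minus strand: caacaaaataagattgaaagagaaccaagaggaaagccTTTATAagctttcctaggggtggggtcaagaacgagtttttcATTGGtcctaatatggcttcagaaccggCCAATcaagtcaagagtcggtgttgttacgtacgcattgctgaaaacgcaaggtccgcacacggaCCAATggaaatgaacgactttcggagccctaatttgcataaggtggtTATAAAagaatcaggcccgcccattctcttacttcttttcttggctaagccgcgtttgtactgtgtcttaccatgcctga
H1-4 at chr6:26156079-26156378, plus strand: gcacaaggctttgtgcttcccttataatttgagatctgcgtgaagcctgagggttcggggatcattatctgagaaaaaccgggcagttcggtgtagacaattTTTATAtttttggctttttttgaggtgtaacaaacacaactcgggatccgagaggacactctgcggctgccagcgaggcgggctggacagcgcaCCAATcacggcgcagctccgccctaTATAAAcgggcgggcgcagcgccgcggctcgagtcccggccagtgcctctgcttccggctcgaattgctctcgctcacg

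Replication-independent histones are made through the cell cycle, mostly from polyadenylated messages, although H2AX of this list keeps a stem-loop, as shown above. Of 14 such genes 11 were tested; 3 fell and 0 rose by edgeR, where 13.1% of all genes tested fell and 12.5% rose, while 1, MACROH2A1, passed an unadjusted edgeR p under 0.05 upward and was called higher by DESeq2. H2AX, the H2A variant that is phosphorylated at DNA breaks, had 595 and 584 counts in the knockdown libraries and 1163 and 1455 counts in the control libraries. The groups were far apart, at 38.2 ± 1.52 CPM in the knockdown and 86.2 ± 2.81 CPM in controls (SD, n = 2 each), and H2AX fell by 1.17 on the log2 scale (SE 0.118, edgeR adjusted p = 6.3e-05). MACROH2A2, a variant with a macrodomain, fell to 39.4 ± 3.9995 CPM in the knockdown, against 74.0 ± 9.05 CPM in controls (SD, n = 2 each; log2 fold change -0.91, edgeR adjusted p = 0.000706). H1-10, a linker variant, fell to 64.9 ± 3.35 CPM in the knockdown, against 88.9 ± 6.02 CPM in controls (SD, n = 2 each; -0.45, edgeR adjusted p = 0.0131), and 22.8% of its exon bases are shared with an antisense gene. The H1-10 call was lost without control library 1 (edgeR adjusted p = 0.138), without control library 2 (edgeR adjusted p = 0.0793) and against a minimum fold of 1.2 (edgeR adjusted p = 0.0907). The H3.3 genes H3-3A and H3-3B had log2 fold changes of 0.04 and -0.07 (edgeR adjusted p = 0.852 and 0.755). H2AZ1 and H2AZ2 had -0.12 and 0.12 (edgeR adjusted p = 0.527 and 0.507) and CENPA of the centromere -0.26 (edgeR adjusted p = 0.157). Summed, these 14 genes stood at 1013 and 974 CPM in the knockdown libraries and 1121 and 967 CPM in the control libraries, far above the 66 replication-dependent genes in each library. H2AX alone lay at 37.1 and 39.3 CPM in the knockdown and 88.1 and 84.2 CPM in controls. H2AX and MACROH2A2 stayed called in every alternative run.

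Of 33 tested genes that make and process histone messages, 5 rose and 3 fell, with a median log2 fold change of 0.00. Over all genes tested 25.6% were called, so this share is near the background. Without control library 1 there was 1 higher and 0 lower, without control library 2 there were 0 of either, and against a minimum fold of 1.2 there was 1 of each. SLBP, which binds the stem-loop, stood at 0.11 on the log2 scale (edgeR adjusted p = 0.534), NPAT 0.25 (edgeR adjusted p = 0.115) and LSM11 -0.02 (edgeR adjusted p = 0.944). LSM10, the partner of LSM11 in the U7 snRNP, fell by 0.56 (edgeR adjusted p = 0.0155), and UPF1, a helicase used in histone mRNA decay, fell by 0.44 (edgeR adjusted p = 0.0445). ZNF473, a U7 snRNP-associated zinc finger protein, rose by 0.48 (edgeR adjusted p = 0.0165), COIL, the coilin of Cajal bodies, by 0.38 (edgeR adjusted p = 0.0360) and CASP8AP2, a component of histone locus bodies, by 0.36 (edgeR adjusted p = 0.0399). CSTF3, a cleavage stimulation factor subunit, rose by 0.41 (edgeR adjusted p = 0.0258). The cyclin E genes moved apart: CCNE2 rose by 0.68 (edgeR adjusted p = 0.00350) and CCNE1 fell by 0.72 (edgeR adjusted p = 0.00204), and 37.1% of the exon bases of CCNE2 are shared with INTS8 and another gene on the opposite strand.

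**Figure D5:**
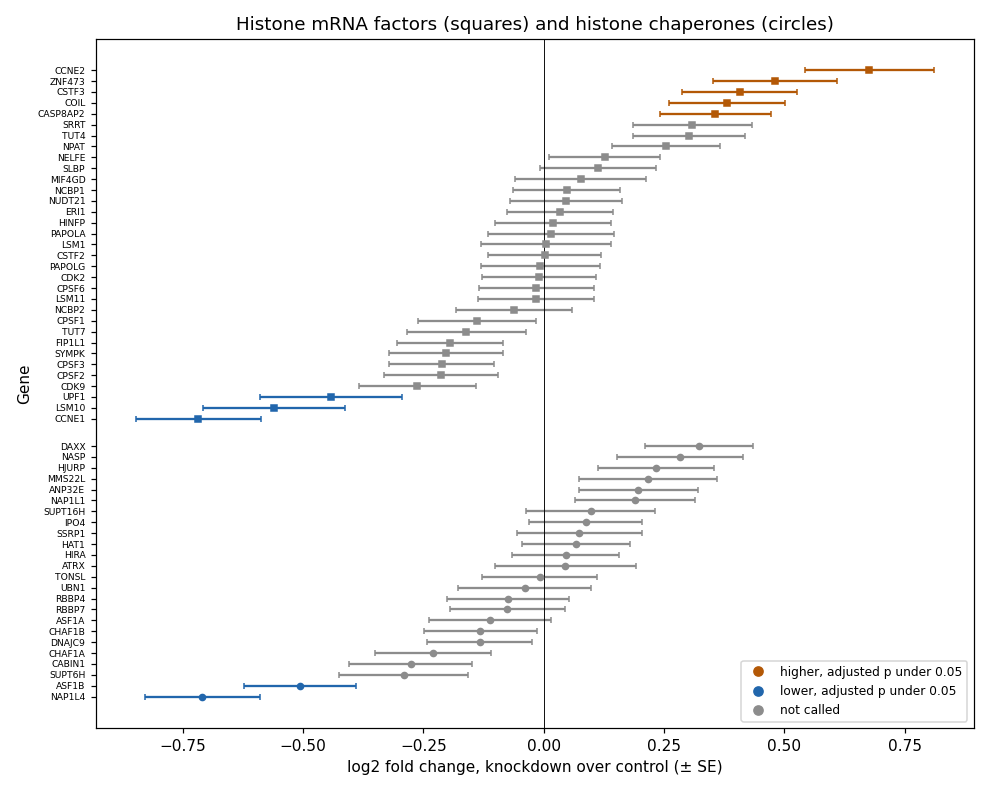
Log2 fold change, RALY knockdown over control, with SE as bars and called genes in colour, of the 33 tested histone mRNA processing and transcription genes (squares) and the 24 tested histone chaperone genes (circles). CCNE2 at 0.68 and CCNE1 at -0.72 are at the ends of the squares, and NAP1L4 at -0.71 is the lowest circle.

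Histone chaperones carry free histones to and from DNA. Of 24 tested, 2 fell and 0 rose by edgeR or DESeq2, against 13.1% and 12.5% of all genes tested by edgeR. At an unadjusted edgeR p under 0.05, 1 was higher and 4 were lower. Of all 19686 genes tested, 3793 were higher and 3731 lower at that threshold. NAP1L4, a chaperone of H2A and H2B, fell by 0.71 (edgeR adjusted p = 0.00137), and ASF1B, a chaperone of H3 and H4, fell by 0.51 (edgeR adjusted p = 0.00803). The ASF1B call was lost without control library 1 (edgeR adjusted p = 0.109), without control library 2 (edgeR adjusted p = 0.0645) and against a minimum fold of 1.2 (edgeR adjusted p = 0.0511). NASP, which binds free H3 and H4, stood at 0.28 on the log2 scale (edgeR adjusted p = 0.134). In the S phase list, 2 of 15 fell and 0 rose by edgeR or DESeq2, against 13.1% and 12.5% of all genes by edgeR. At an unadjusted edgeR p under 0.05, 4 were lower and 0 higher, beside the same 3731 lower and 3793 higher of all genes. CDT1, a licensing factor, fell by 0.54 (edgeR adjusted p = 0.00737), and MCM5, a helicase subunit, fell by 0.63 (edgeR adjusted p = 0.0189). MKI67, a marker of cycling cells, stood at 0.01 on the log2 scale (edgeR adjusted p = 0.962).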

How the data were processed

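RNA sequencing of 2 RALY knockdown and 2 control HCT116 libraries was used. The deposited values are whole-number counts per gene, with exon coordinates and lengths, per the file headers. The submitters' processing notes name the build GRCh38 and the tools featureCounts, Subread, SAMtools and HISAT2 2.0.4. Strand use, reads that map to several places and duplicate removal are not given in the labels or headers, and overlapping or near-identical genes are uncertain for that reason. Of 58884 gene IDs, 58472 were found in GENCODE release 44, which gave the symbols.

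All genes were fitted with edgeR 4.0.16 under R 4.3.3 (filterByExpr, TMM factors, robust quasi-likelihood F test, group as the only term), which left 19686 genes, with Benjamini-Hochberg adjustment over all of them. The code of the fit was run on simulated counts, with changes placed only in better-counted genes and the same spread for every gene. That run does not bear on calls at low counts. With 2 libraries against 2, an exact permutation test of 1 value cannot go below p = 0.333, so sums were not tested. CPM used TMM-scaled totals, and RPKM divided them by deposited exon length. Each SE of a log2 fold change is its absolute value divided by the square root of the F statistic. Alternatives were DESeq2 size factors, library totals, the DESeq2 1.42.0 Wald test, other filters, a replicate block, each library left out, counts corrected for saturation of read positions, and a minimum fold of 1.2. The members and lists were chosen with earlier results of these data known. Genes named are RALY, called members, for each histone type the 4 tested members with the highest mean CPM and those with the smallest p, and by the same kind of rule members of the other lists. Other genes were named after their values were seen. One replication-independent histone gene is not reported here.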

Additional observations from a re-analysis of the deposited data

How the results depend on the processing

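Among the histone genes, the 2 called higher and 0 called lower were unchanged in number with DESeq2 size factors, a filter of 1 CPM in 2 libraries, saturation-corrected counts, and members that share no exon base or average at least 10 counts. The number higher was 1 with library totals, 1 with the DESeq2 Wald test and 1 against a minimum fold of 1.2. Without a filter 7 were higher (H1-4, H2BC18, H2BC21, H2BC26, H2BC7, H3C12 and H4C2) and 2 were lower (H3C14 and H4C14). Same-numbered libraries share a number in the titles and in the spelling of the cell line in 1 label, and no label says what the number marks. The deviations of same-numbered libraries correlated at 0.239 over 19686 genes, and 2 pairs cannot show a pairing. With the replicate block, 5 histone genes were higher (H2BC21, H1-4, H2BC18, H2BC26 and H3C12) and 1 was lower (H2BC15). Leaving out 1 library gave 0 to 10 higher and 0 to 2 lower. Over all genes, a minimum fold of 1.2 left 1480 higher and 1604 lower, and leaving out 1 library gave 340 to 2908 higher and 508 to 3351 lower. Among replication-independent histones, 1 was higher (MACROH2A1) with library totals, the DESeq2 Wald test, no filter and the replicate block, and 0 to 1 were higher and 2 to 3 lower with 1 library left out. Processing and transcription genes had 3 higher with the DESeq2 Wald test, 1 higher and 1 lower against a minimum fold of 1.2, and 0 to 4 higher and 0 to 4 lower with 1 library left out. Chaperones had 1 higher with the filter of 1 CPM, the replicate block and saturation-corrected counts, 1 lower against a minimum fold of 1.2, and 0 to 1 higher and 1 to 5 lower with 1 library left out. The causes were not tested. With 1 library left out, the log2 fold change ran over 0 for H1-2 (-0.75 to 0.37), H2AC6 (-0.53 to 0.49), H2AC25 (-1.06 to 0.36), H2BC12 (-0.42 to 0.084), H2BC5 (-0.70 to 0.70), H3C4 (-0.065 to 0.82), H4C8 (-0.15 to 1.01), H3-3B (-0.24 to 0.066) and H3-3A (-0.14 to 0.20). RALY ran from -1.96 to -1.76 and stayed called throughout. Of the 66 histone genes, 27 had counts but were left untested by the filter. In a recount chosen after the data were seen, the head-to-head pairs had opposite signs in 4 of 4 pairs without knockdown library 2 or control library 1, in 2 without knockdown library 1 and in 1 without control library 2.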
